A study of Mus musculus with 38 samples.

Results

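The 4 genes Dbp, Tef, Hlf and Nfil3 were followed in 2 tissues, lung and forestomach, of MutaMouse males (a transgenic reporter strain) exposed to dibenz(a,h)anthracene (DBahA), a genotoxic polycyclic aromatic hydrocarbon. Their probes were found by transcript accession among 55681 probes of a dual-colour Agilent array. This gave 5 probes: 2 for Dbp (NM_016974, chromosome 7) and 1 each for Tef (NM_017376, chromosome 15), Hlf (NM_172563, chromosome 11) and Nfil3 (NM_017373, chromosome 13). These 4 were among 20018 genes with a symbol.

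DBP, TEF and HLF are the PAR bZIP activators, transcription factors with a basic leucine zipper that bind the D-box. NFIL3 (also E4BP4) binds the same site and represses. Dbp is a textbook output gene of the circadian clock: CLOCK and BMAL1 drive it through E-boxes, so that it cycles in nearly every tissue, and Nfil3 peaks at the opposite time of day. The D-box factors in turn drive genes of drug and lipid metabolism in liver and kidney.

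Mice aged about 10 weeks were gavaged daily for 28 days, and tissues were collected 72 h after the last dose. D0 received olive oil alone. DBahA in olive oil was given to D3 at 25 mg/kg-bw/day, to D2 at 12.5 and to D1 at 6.25. Lung was profiled in 5, 5, 4 and 5 mice of D0 to D3. Forestomach was profiled in 5, 5, 4 and 4 mice, and 18 mice had both tissues. The labels give mouse 18 of D3 2 forestomach arrays, which were averaged, and no forestomach array used here carries the number 20; whether both arrays came from mouse 18 was not tested. All groups were of the same strain and were housed individually on a light/dark cycle. The hour of day at which each mouse was killed is not given in the sources used here, and its part in the values below was not tested. Each value is the log2 ratio of tissue RNA (Cy5) to a universal mouse reference RNA (Cy3) on the same array. A ratio to the reference compares one probe between samples and does not rank one gene against another.

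All 5 probes were well above background in Cy5 on all 38 arrays. Between 30.0% and 63.7% of all probes were well above background in Cy5 on an array. Arrays of the same tissue and dose correlated across probes between r = 0.92 and 0.96 in lung and between 0.66 and 0.97 in forestomach. The 6 lung markers, such as Sftpc and Scgb1a1, were above background on every lung array, and at least 5 of 6 squamous epithelium markers, such as Krt5, on every forestomach array. The mean log2 ratio of 9 glandular stomach markers, such as Gkn1 and Atp4a, lay between 0.36 and 0.94 on 6 forestomach arrays (mice 2, 5, 8, 9 and 15 and the first array of mouse 18) and between 4.61 and 6.48 on the others. Glandular tissue was thus present in most, but not all, forestomach samples of every dose group. In lung, the mean of 6 heart muscle markers ranged from 0.37 to 1.70 at D0 and from 0.15 to 2.86 at D3. In such bulk samples, fewer cells of a type and less RNA per cell cannot be told apart.

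**Figure D1:**
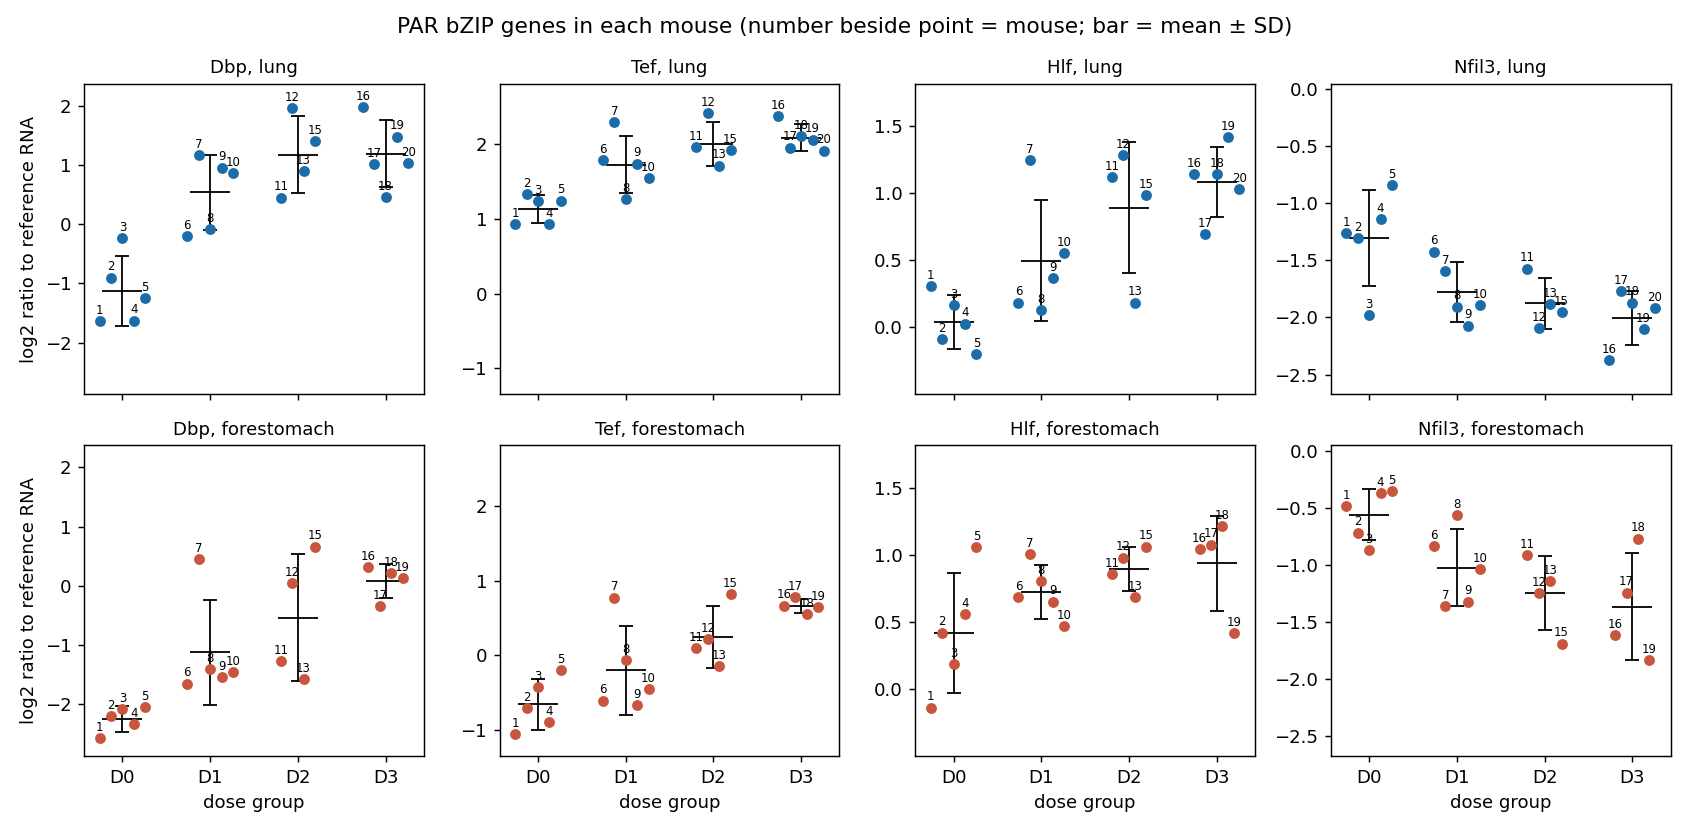
Log2 ratio to reference RNA (vertical axis) of the brightest probe of each gene by dose group (horizontal axis), lung above and forestomach below; each point is 1 mouse with its number, and bars are mean ± SD. The means of Dbp, Tef and Hlf lay higher and those of Nfil3 lower in every treated group than in D0, and forestomach Dbp of every treated mouse lay above all 5 D0 mice.

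Dbp showed the largest change of the 4 genes in both tissues. In lung, the log2 ratio of its brighter probe was -1.64, -0.90, -0.23, -1.63 and -1.25 in mice 1 to 5 of D0. It was -0.20, 1.17, -0.09, 0.95 and 0.86 in mice 6 to 10 of D1. It was 0.45, 1.95, 0.89 and 1.39 in mice 11, 12, 13 and 15 of D2, and 1.97, 1.01, 0.45, 1.48 and 1.02 in mice 16 to 20 of D3. Each dose group lay wholly above D0, as 0.914%, 1.6% and 2.05% of all probes did at D1, D2 and D3, although the lowest D1 mouse (mouse 6, -0.20) was only just above the highest D0 mouse (mouse 3, -0.23).

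Lung Dbp rose 3.18-fold at D1 (log2 change 1.67, SE 0.33, n = 5 and 5, adjusted p = 0.0361), 4.93-fold at D2 (2.30, SE 0.35, n = 4 and 5, adjusted p = 0.00197) and 4.98-fold at D3 (2.32, SE 0.33, n = 5 and 5, adjusted p = 0.000606) against D0. These p-values are limma's, adjusted by Benjamini-Hochberg over all probes. A probe was called where the adjusted p was at most 0.05 and the fold change at least 1.5. The second Dbp probe gave log2 changes of 1.82, 2.55 and 2.48 and was called at the same doses. The D1 call did not hold when any one of mice 1, 2, 4, 5, 7, 9 or 10 was left out (log2 change over all such fits 1.51 to 1.89, adjusted p up to 0.146). It was also lost in 4 of 10 processing alternatives (log2 change over the 10 of 1.59 to 1.94, adjusted p up to 0.818), namely the Feature Extraction ratios, the authors' deposited ratios, a trended robust prior and median centring. By contrast, the D3 call held without each mouse (2.12 to 2.54, adjusted p at most 0.00318). From D1 to D3 lung Dbp differed by 0.65 (95% CI -0.05 to 1.34), which did not pass the test.

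In forestomach, Dbp was -2.57, -2.20, -2.07, -2.33 and -2.04 in mice 1 to 5 of D0, a narrow range. At D1 it was -1.65 in mouse 6, -1.41 in mouse 8, -1.54 in mouse 9 and -1.46 in mouse 10, but 0.46 in mouse 7. At D2 it was -1.27 and -1.57 in mice 11 and 13, but 0.05 and 0.66 in mice 12 and 15. At D3 it was 0.32, -0.34, 0.21 and 0.13 in mice 16 to 19. So D0 was uniformly low and D3 uniformly higher. At D1 and D2 some mice lay between these groups and mice 7, 12 and 15 within or above the range of D3.

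The forestomach change in Dbp was 1.12 (SE 0.41, n = 5 and 5) at D1, 1.71 (SE 0.44, n = 4 and 5) at D2 and 2.32 (SE 0.44, n = 4 and 5) at D3, the last 5.00-fold (95% CI 2.64 to 9.45). None of these passed the adjustment over all probes (limma adjusted p = 0.891 at D3). The brighter probe nevertheless had rank 2 by p among all 55681 probes at D3. When only the D0 and D3 mice were fitted, so that the wider spread at D1 and D2 did not enter, both Dbp probes were called (adjusted p = 0.00218 for the brighter), and they were 2 of the 3 probes called in that fit. All 13 treated mice lay above all 5 D0 mice for both Dbp probes. Only 7 of 55519 probes with complete values (0.0126%) did so in forestomach, against 208 of 55477 (0.375%) in lung, where both Dbp probes were again among them.

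Glandular stomach markers lay higher with D3 in forestomach too: 9 of 9 did, with a median log2 change of 1.17 and 0 called. For the mean log2 ratio of these markers, the 2 arrays of mouse 18 of D3 read 0.94 and 6.05 and were averaged to 3.50. So averaged, this mean ranged per mouse from 0.58 to 6.48 at D0 and from 3.50 to 6.00 at D3. With this mean as a covariate, forestomach Dbp at D3 was 2.36, and on the arrays where it was above 4 alone, a setting added after the data were seen, Dbp was 2.48, Tef 1.45 and Nfil3 -1.04. On the 6 low-scoring arrays Dbp read -2.20 and -2.04 in mice 2 and 5 of D0, -1.41 and -1.54 in mice 8 and 9 of D1, 0.66 in mouse 15 of D2 and -0.10 on the first array of mouse 18 of D3. In lung, 5 of 6 heart muscle markers lay higher at D3 (median 0.51), whereas at D1 all 6 lay lower (median -0.33, lowest -1.40), as did all 5 fat markers (median -0.50, lowest -2.14). At D3, 2 of 5 fat markers lay higher (median -0.0268). None of these was called, and their part in the lung values was not tested.

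The promoter of Dbp is shown because none of the letters searched occurs in it. The motifs, on both strands of the 250 bases before to 50 after each RefSeq start (GRCm38.p6), were the E-box CACGTG, the D-box (TTATGTAA or TTACGTAA), the core of the ROR element AGGTCA, to which the REV-ERB repressors also bind, and the core of the xenobiotic response element TNGCGTG, bound by the aryl hydrocarbon receptor. They occur in 7.15%, 1.06%, 16.3% and 5.07% of 32851 promoters. The bases before the start of Dbp, on the plus strand and 5′ to 3′, were:
Dbp, chr7:45704997-45705246: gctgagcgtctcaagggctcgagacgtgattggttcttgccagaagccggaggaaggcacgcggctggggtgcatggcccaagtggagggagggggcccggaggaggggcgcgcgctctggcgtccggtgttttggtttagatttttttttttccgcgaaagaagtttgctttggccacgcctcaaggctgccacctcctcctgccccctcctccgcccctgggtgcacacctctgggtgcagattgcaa
No match says only that these letters are not in this window.

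Tef, whose product is the PAR bZIP activator closest to DBP in its wide expression, moved with a smaller amplitude. In lung it was 0.93, 1.33, 1.24, 0.93 and 1.25 in mice 1 to 5 of D0 and 1.79, 2.30, 1.26, 1.74 and 1.55 in mice 6 to 10 of D1. It was 1.96, 2.41, 1.72 and 1.92 in mice 11, 12, 13 and 15 of D2 and 2.38, 1.96, 2.12, 2.07 and 1.92 in mice 16 to 20 of D3. At D1 mouse 8 overlapped with D0. At D2 and D3 all mice lay above all D0 mice, as for 1.6% and 2.05% of all probes. Lung Tef was called at D2 (log2 change 0.87, SE 0.17, n = 4 and 5, limma adjusted p = 0.0153) and D3 (0.95, SE 0.16, n = 5 and 5, limma adjusted p = 0.00216, 1.93-fold). The D1 change of 0.59 (SE 0.16) did not pass the adjustment. The D2 call was lost without mouse 1, 4 or 12 (adjusted p up to 0.108), and the D3 call held without each mouse.

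In forestomach, Tef ranged from -1.05 to -0.20 at D0, from -0.67 to 0.77 at D1 (the highest was again mouse 7), from -0.15 to 0.82 at D2 (the highest was mouse 15) and from 0.55 to 0.78 at D3. All 4 D3 mice lay above all D0 mice, as for 0.495% of all probes. The D3 change was 1.32 (SE 0.26, n = 4 and 5), 2.49-fold, with rank 6 by p but an adjusted p of 0.891 (limma). Lung Tef lay above forestomach Tef at D0 by 1.79 (SE 0.21, limma adjusted p = 2.4e-08), and every lung group mean lay above every forestomach group mean.

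RefSeq gives Tef 2 starts, and the E-box stood in both promoters, at positions -127 and -138 from the start. They are printed with the E-box and, in the second, a xenobiotic response element core on the opposite strand in capitals:
Tef, first start, chr15:81802501-81802596: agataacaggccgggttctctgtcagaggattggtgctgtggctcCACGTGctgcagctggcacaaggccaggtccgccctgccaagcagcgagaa
Tef, second start, chr15:81811231-81811413: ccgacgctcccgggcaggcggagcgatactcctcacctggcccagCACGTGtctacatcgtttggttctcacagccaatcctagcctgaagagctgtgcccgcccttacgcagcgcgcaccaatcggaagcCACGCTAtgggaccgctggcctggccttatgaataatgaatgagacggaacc
Both are on the plus strand of GRCm38.p6. A match is a description of letters, not of binding.

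Hlf, the third activator, had the dimmest probe, with median Cy5 signals of 97.5 to 295.5 per group on the scanner's linear scale. In lung it was 0.31, -0.09, 0.17, 0.03 and -0.20 in mice 1 to 5 of D0 and 0.18, 1.24, 0.13, 0.37 and 0.55 in mice 6 to 10 of D1. It was 1.12, 1.28, 0.18 and 0.98 in mice 11, 12, 13 and 15 of D2 and 1.14, 0.69, 1.14, 1.41 and 1.03 in mice 16 to 20 of D3. The D3 mice lay wholly above D0, as for 2.05% of all probes, and mouse 13 kept D2 from doing so. Of the single doses, lung Hlf was called at D3 (1.04, SE 0.20, n = 5 and 5, limma adjusted p = 0.00897, 2.06-fold). In forestomach, Hlf ranged from -0.14 to 1.05 at D0 and from 0.42 to 1.21 at D3, groups that overlapped, with a change of 0.52 (SE 0.20, n = 4 and 5) that did not pass the test. One core of the xenobiotic response element stood at -241 from the start of Hlf, in capitals here, on the minus strand of GRCm38.p6:
Hlf, chr11:90391107-90391167: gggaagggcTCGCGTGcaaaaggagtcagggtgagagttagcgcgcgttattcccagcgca

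Nfil3, the D-box repressor, went the other way. In lung it was -1.26, -1.31, -1.98, -1.14 and -0.84 in mice 1 to 5 of D0 and -1.42, -1.59, -1.90, -2.07 and -1.89 in mice 6 to 10 of D1. It was -1.57, -2.10, -1.88 and -1.95 in mice 11, 12, 13 and 15 of D2 and -2.37, -1.77, -1.87, -2.10 and -1.92 in mice 16 to 20 of D3. Mouse 3 of D0 lay among the treated mice, and the other 4 D0 mice lay above every treated mouse. Lung Nfil3 was called at D3 (-0.70, SE 0.17, n = 5 and 5, limma adjusted p = 0.0421, 1.63-fold lower). That call was lost without any one of mice 1, 2, 4, 5, 16, 18, 19 or 20 (log2 changes over all such fits -0.87 to -0.59, adjusted p up to 0.148). It was also lost in the Feature Extraction ratios, where D0 and D3 alone were fitted and with median centring of the arrays.

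In forestomach, Nfil3 was -0.49, -0.71, -0.87, -0.37 and -0.35 in mice 1 to 5 of D0 and -1.61, -1.24, -0.77 and -1.83 in mice 16 to 19 of D3. The D3 change was -0.80 (SE 0.21, n = 4 and 5) and did not pass the adjustment. The value of mouse 18 was the mean of 2 arrays that read 0.25 and -1.79. The change was -0.55 with the first array alone and -1.06 with the second alone. With the 2 arrays as separate samples it was -0.69, and that of Dbp 2.35. At D2 all 4 mice lay below all D0 mice (-0.69, SE 0.21), as for 0.503% of all probes. A core of the ROR element, on the opposite strand, began at -12 from the start of Nfil3, in capitals here, on the minus strand of GRCm38.p6:
Nfil3, chr13:52981040-52981096: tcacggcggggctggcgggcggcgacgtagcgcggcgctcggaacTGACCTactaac

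**Figure D2:**
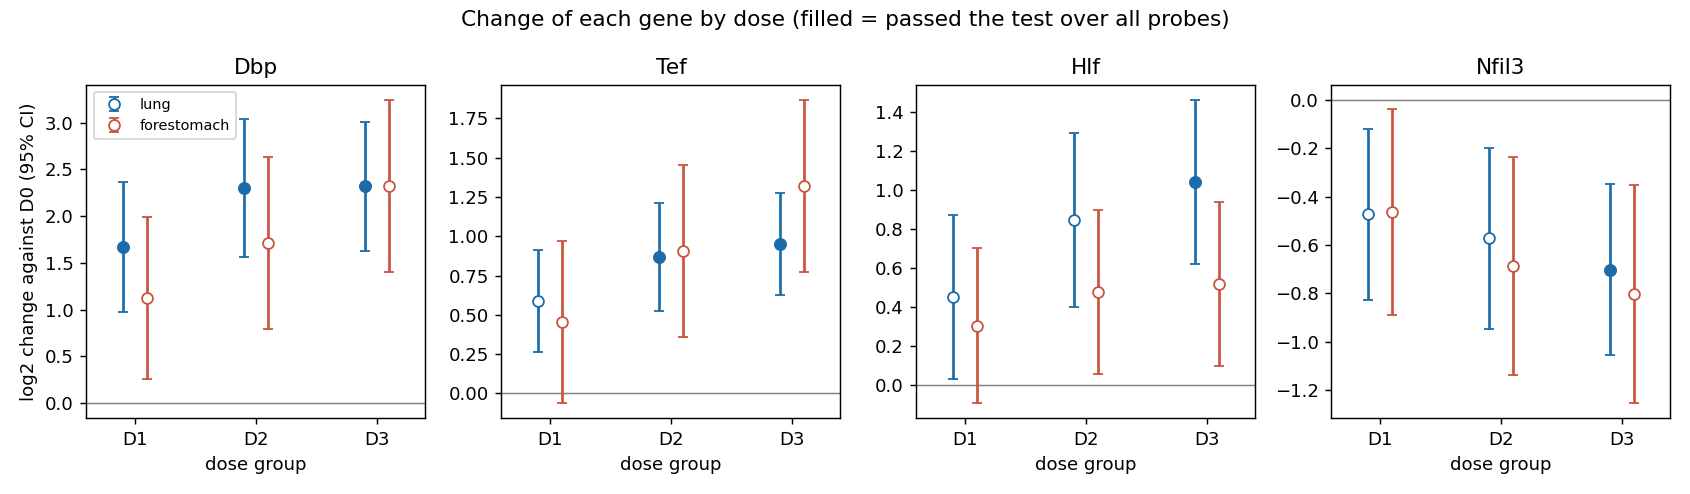
Log2 change against D0 (vertical axis) of the brightest probe of each gene at D1, D2 and D3 (horizontal axis) in lung and forestomach; bars are 95% confidence intervals from limma and filled points passed the test over all probes. Dbp, Tef and Hlf lay above 0 and Nfil3 below 0 at every dose in both tissues, and filled points occur in lung alone.

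Counted over the 5 probes, 2 were called in lung at D1, where 0.14% of all 55681 probes were called in either direction. At D2 it was 3 of 5, against 0.264% of all probes, and at D3 5 of 5, against 0.639%. For the mean of the 3 doses against D0, 4 of 5 were called, against 0.411%. Nfil3 was the exception there, at -0.58 (SE 0.14, adjusted p = 0.0454), a change just below 1.5-fold. The Hlf call in that comparison (0.78, SE 0.17, adjusted p = 0.0202) was lost without mouse 2, 4 or 5 (adjusted p up to 0.0922). It was also lost in the Feature Extraction ratios and with median centring of the arrays. No probe was called in lung between D3 and D1.

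In forestomach limma called 0 of 5 probes at every dose, as it called 0 of all probes (0%). Unadjusted p under 0.05 was found for 3 of 5 at D1, 5 of 5 at D2, 5 of 5 at D3 and 5 of 5 for the mean of the doses, where 2400, 1729, 1983 and 1893 of all 55681 probes had it. Fitted with a trended and robust prior variance, limma also called none of the 5, and 1 of all probes at D3. The direction was the same as in lung for all 5 probes at all 3 doses.

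The lung response minus the forestomach response, taken over the mean of the 3 doses, was called for 0 of 5 probes (0.192% of all probes), and unadjusted p was under 0.05 for 0 of 5. The difference was 0.38 for Dbp (95% CI -0.56 to 1.32), -0.09 for Tef (-0.60 to 0.41), 0.35 for Hlf (-0.14 to 0.84) and 0.07 for Nfil3 (-0.39 to 0.53). That the calls occurred in lung alone is thus no sign that the tissues differed.

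At D0 itself, 3 of 5 probes differed between lung and forestomach (16.2% of all probes). Dbp lay 1.11 higher in lung (SE 0.39, limma adjusted p = 0.0318), and Nfil3 0.75 lower (-0.75, SE 0.19, limma adjusted p = 0.00315). The second Dbp probe was 1.02 higher (adjusted p = 0.0716), and was called when the mouse was a block, which made it 4 of 5. The Dbp call did not hold without mouse 1, 2, 3 or 5 (adjusted p up to 0.126). Hlf differed by -0.38 (95% CI -0.79 to 0.04), which did not pass.

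The 8 group means of Dbp ran from forestomach D0 (-2.24 ± 0.22, SD, n = 5) over lung D0 (-1.13 ± 0.59, n = 5), forestomach D1 (-1.12 ± 0.89, n = 5), forestomach D2 (-0.53 ± 1.06, n = 4), forestomach D3 (0.08 ± 0.29, n = 4), lung D1 (0.54 ± 0.63, n = 5) and lung D2 (1.17 ± 0.65, n = 4) to lung D3 (1.19 ± 0.57, n = 5). Between neighbours in this order the mice overlapped in every pair but the first. For Tef, the only gap was between forestomach D3 (0.66 ± 0.10, n = 4) and lung D0 (1.14 ± 0.19, n = 5). For Hlf and Nfil3 all neighbours overlapped, with the lowest mean in lung D0 for Hlf (0.04 ± 0.20, n = 5) and in lung D3 for Nfil3 (-2.01 ± 0.24, n = 5), and the highest in lung D3 for Hlf (1.08 ± 0.26, n = 5) and forestomach D0 for Nfil3 (-0.56 ± 0.23, n = 5).

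The arrays lay on 5 slides, of which 4 held both D0 and D3 in each tissue, mostly as 1 array of each. Within these slides D3 minus D0 of Dbp was 0.69 to 3.103 in lung and 1.85 to 2.83 in forestomach. For Tef it was 0.63 to 1.13 in lung and 1.00 to 1.54 in forestomach. For Hlf it was 0.78 to 1.39 in lung and -0.15 to 1.44 in forestomach. For Nfil3 it was -0.96 to 0.11 in lung and -1.46 to 1.12 in forestomach, where the highest value compares the first array of mouse 18 with mouse 3. The signs of Dbp and Tef were thus the same on all 4 slides in both tissues, and that of Hlf in lung. With slide as a block, all 5 probes were called in lung at D3.

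**Figure D3:**
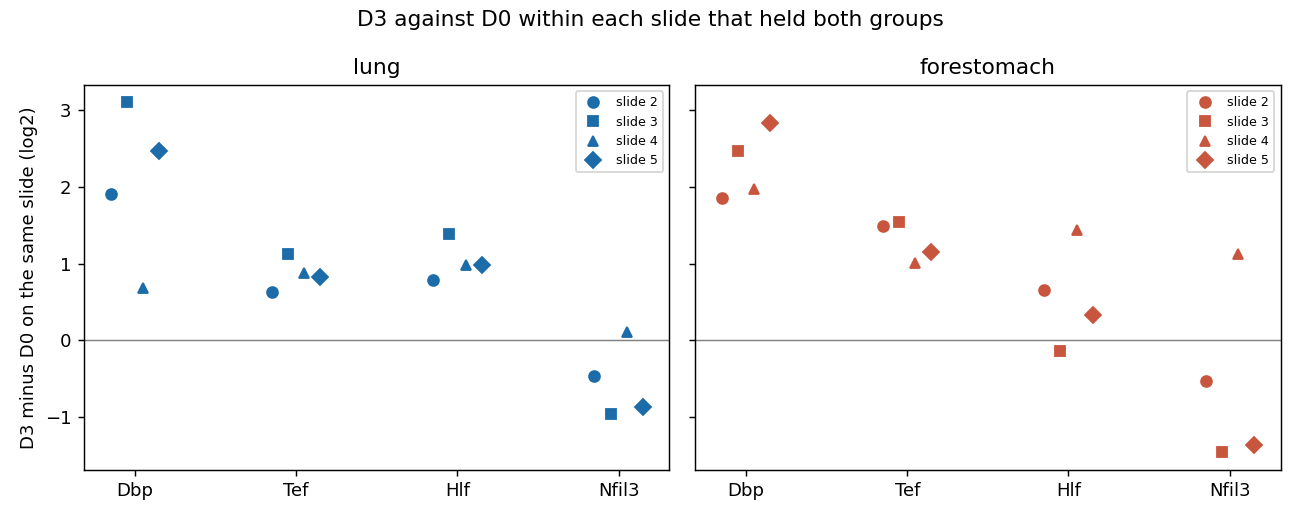
D3 minus D0 on the same slide (vertical axis, log2) for the brightest probe of each gene (horizontal axis), lung left and forestomach right; each symbol is 1 of the 4 slides with both groups. Dbp and Tef lay above 0 on all 4 slides in both tissues, and Nfil3 lay on both sides of 0.

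The lung calls rested on the intensity-dependent correction of each array. Where arrays were only centred on their median, 0 of 5 probes were called in lung at D3, with Dbp at 2.60 (adjusted p = 0.260), Tef at 1.38, Hlf at 1.00 and Nfil3 at -0.26, and 0.0287% of all probes were called.

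Whether the tissues of a mouse moved together was examined in the 18 mice with both, each value taken relative to the mean of its dose group and tissue. For Dbp, Pearson's r was 0.54 (permutation p = 0.0344) and Spearman's rho 0.54 (permutation p = 0.0361), with the same sign in 14 of 18 mice. Mouse 7 lay 0.63 above its group in lung and 1.58 above it in forestomach, mouse 12 lay 0.78 and 0.59 above, and mouse 15 lay 0.22 and 1.19 above. Mice 1, 4, 6, 8, 11, 13 and 17 lay below their group in both. By contrast, mice 5, 9, 10 and 18 lay on opposite sides of their group in the tissues. Mouse 9 was 0.42 above its group in lung and 0.42 below it in forestomach, and mouse 10 was 0.32 above and 0.34 below. Mouse 5 was 0.12 below its group in lung and 0.20 above it in forestomach. Mouse 18 was 0.78 below its group in lung and 0.13 above it in forestomach, where its 2 arrays read -0.10 and 0.53.

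The agreement did not pass the adjustment over the same correlation of all 55321 probes (adjusted p = 0.278), and 12.1% of probes had an r at least as high. The median r over all probes was 0.14. Without the mice farthest from the median in lung (mice 3 and 18), r was 0.65 (permutation p = 0.0295), and with slide means removed it was 0.45. The tissues of a mouse shared a slide, except for the second forestomach array of mouse 18. For the second Dbp probe r was 0.55 (permutation p = 0.0423, rho 0.57, permutation p = 0.0354), but 0.43 without mice 3 and 7 (permutation p = 0.238).

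For Tef, r was 0.46 (permutation p = 0.163, rho 0.33, permutation p = 0.255), 0.28 without mice 7 and 8 (permutation p = 0.440) and 0.049 without mouse 7 alone, so that it rested on that mouse. Leaving out each mouse in turn gave 0.049 to 0.59 for Tef, 0.48 to 0.61 for Dbp and 0.46 to 0.62 for Nfil3. For Nfil3, r was 0.51 (permutation p = 0.0316, rho 0.51, permutation p = 0.0489), with an adjusted p over all probes of 0.324, and 0.45 without mice 3 and 5 (permutation p = 0.155), where it no longer held. For Hlf, r was -0.10 (permutation p = 0.649, rho -0.13, permutation p = 0.614), and -0.73 without mice 7 and 13 (permutation p = 0.0067). Correlations between the tissues were computed for all 5 probes of the 4 genes.

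**Figure D4:**
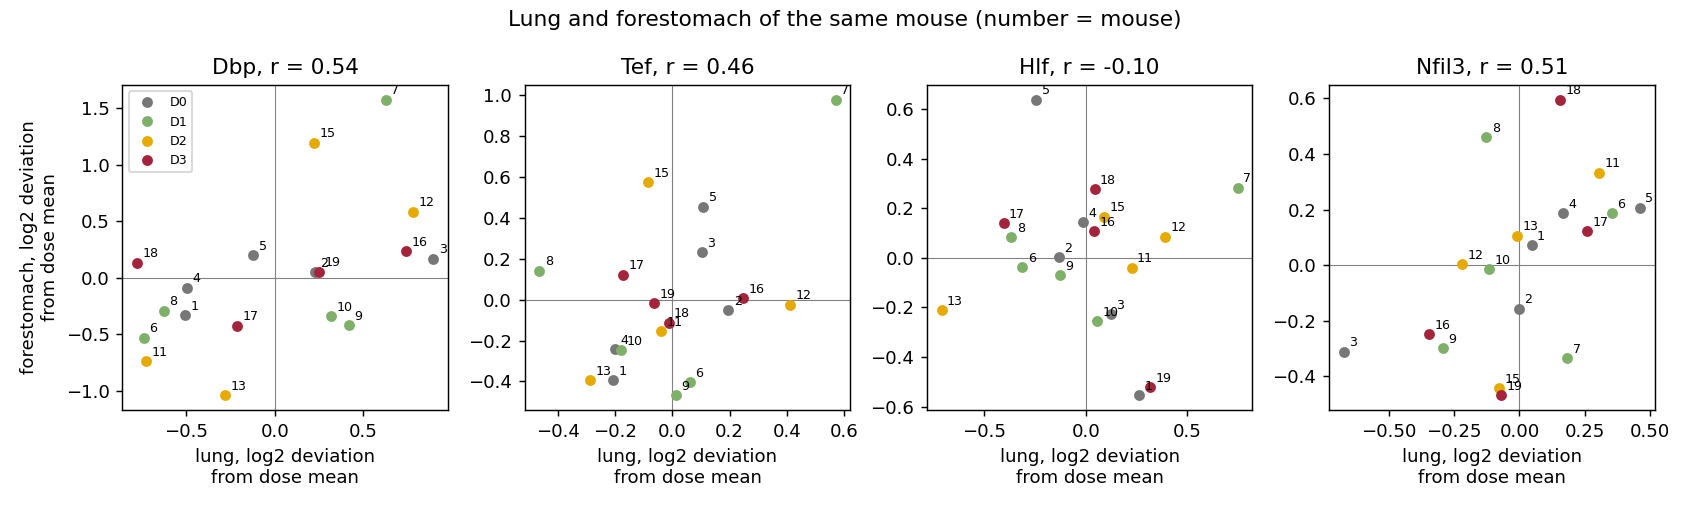
Deviation from the dose group mean in lung (horizontal axis, log2) and forestomach (vertical axis, log2) for the brightest probe of each gene in the 18 mice with both tissues; numbers are mice and colours are dose groups. Mice 7, 12 and 15 lay high in both tissues for Dbp (r = 0.54), whereas Hlf showed no such order (r = -0.10).

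The genes with the pattern most like that of Dbp over the 19 lung mice, among 14346 probes of named genes well above background on all lung arrays and with the 4 genes themselves left out, were Nr1d2 (r = 0.94), Trp53inp1 (0.93), Mcm7 (0.91), Col18a1 (0.91) and Mad2l1 (0.90). Nr1d2 encodes the clock repressor REV-ERB beta, Trp53inp1 is induced by p53, Mcm7 is a subunit of the replicative helicase, Col18a1 encodes a collagen and Mad2l1 a spindle checkpoint protein. Relative to the dose means these r were 0.82, 0.70, 0.59, 0.80 and 0.57. Over the 18 forestomach mice and 11089 probes, with the 4 genes again left out, they were Cry2 (0.75), Cdk5rap1 (0.70), Per1 (0.68) and Aggf1 (0.67). Of these, Cry2 and Per1 encode clock repressors. Only probes above background on all forestomach arrays were compared. The brightest probe of Nr1d2 was above background on 17 of 19 and was therefore not ranked. The arrays share slides and a reference, and these r are descriptions.

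In lung, Nr1d2 was also the gene most like Tef (r = 0.95), ahead of Tspan4 (0.94) and Apoa2 (0.94). Tspan4, which encodes a tetraspanin, led for Hlf (0.90), followed by Ptgis, the prostacyclin synthase (0.86), and Cmc2 (0.86). Nfil3 was most like Ripk4 (0.91), Chordc1 (0.88) and Rhou (0.88), which encode a kinase, a chaperone-associated protein and a small GTPase.

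The other clock genes were taken as lists, with 1 brightest probe per gene. Of 10 clock genes that peak near Dbp, all 10 had higher lung levels at the top dose (median log2 change 0.50, against -0.000358 over all probes). Of the 10, 2 were called, where 0.639% of all probes were. They were Nr1d2 at 1.17 (SE 0.21, limma adjusted p = 0.00463) and Bhlhe40, a clock repressor, at 0.59 (SE 0.13, limma adjusted p = 0.0234). The Nr1d2 call held without each mouse and in 9 of 10 processing alternatives, but not with median centring of the arrays (limma adjusted p = 0.732). The Bhlhe40 call, close to the fold threshold, was lost without mouse 5, 16, 19 or 20. It was also lost in the authors' deposited ratios, with scan day as a block and with median centring. Per2 was at 0.59 (adjusted p = 0.347) and Per3, both period genes, at 0.58 (adjusted p = 0.0156, just under the fold threshold). Lung Per3 was called at D2 (0.70, SE 0.13, limma adjusted p = 0.0106) and for the mean of the doses (0.59, SE 0.10, limma adjusted p = 0.0028). At D3 the other 6 lay between 0.00375 and 0.51. In forestomach 8 of 10 lay higher at D3, with a median of 0.39 (5 of the 6 above background on at least 10 of 19 arrays, median 0.50), and 0 of 10 were called by limma, with Nr1d2 at 0.93 (SE 0.18, adjusted p = 0.891).

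Of 4 clock genes of the opposite phase, 3 lay lower in lung at D3 and 1 was called, where 0.639% of all probes were. Arntl, which encodes BMAL1, was at -1.49 (SE 0.26, limma adjusted p = 0.00345) and its call held without each mouse. The Arntl call also held in 9 of 10 processing alternatives, but not with median centring of the arrays (limma adjusted p = 0.732). Npas2 was at -0.26 (adjusted p = 0.256), Clock at -0.25 (adjusted p = 0.346) and Cry1 at 0.11 (adjusted p = 0.742), of which Npas2 and Cry1 were above background on 6 of 19 lung arrays. In forestomach Arntl was at -0.50 (SE 0.26) and 3 of 4 lay higher, with 0 called by limma, but only Arntl and Clock were above background on at least 10 of 19 arrays.

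Of 8 genes known as PAR bZIP targets in other tissues, 7 were measured, and 0 were called in either tissue at D3. Of all probes, 0.639% were called in lung at that dose and 0% in forestomach, so that few or no calls among 7 genes say little about the targets. Cyp7a1 among them was above background on 0 arrays. In lung, the median over the 6 above background on at least 10 of 19 arrays was -0.0743, with 2 higher and 4 lower. Alas1, the first enzyme of haem synthesis, was at -0.18 (SE 0.17), Aldh1a1, a retinaldehyde dehydrogenase, at -0.17 (SE 0.18), Por, the electron donor of cytochromes P450, at -0.14 (SE 0.13), and Pdxk, the pyridoxal kinase, at 0.12 (SE 0.12). In forestomach, 5 were above background on at least 10 of 19 arrays, with 2 higher and 3 lower (median -0.0138, the value of Alas1), and Cyp2b10 was highest at 0.97 (SE 0.63). By limma, none of the 7 had an unadjusted p under 0.05 at D3 in either tissue. Of 6 genes of the C/EBP family, bZIP factors that bind related sites, 1 was called in lung at D3, Cebpb at -0.60 (SE 0.11, adjusted p = 0.0039), and 0 in forestomach.

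**Figure D5:**
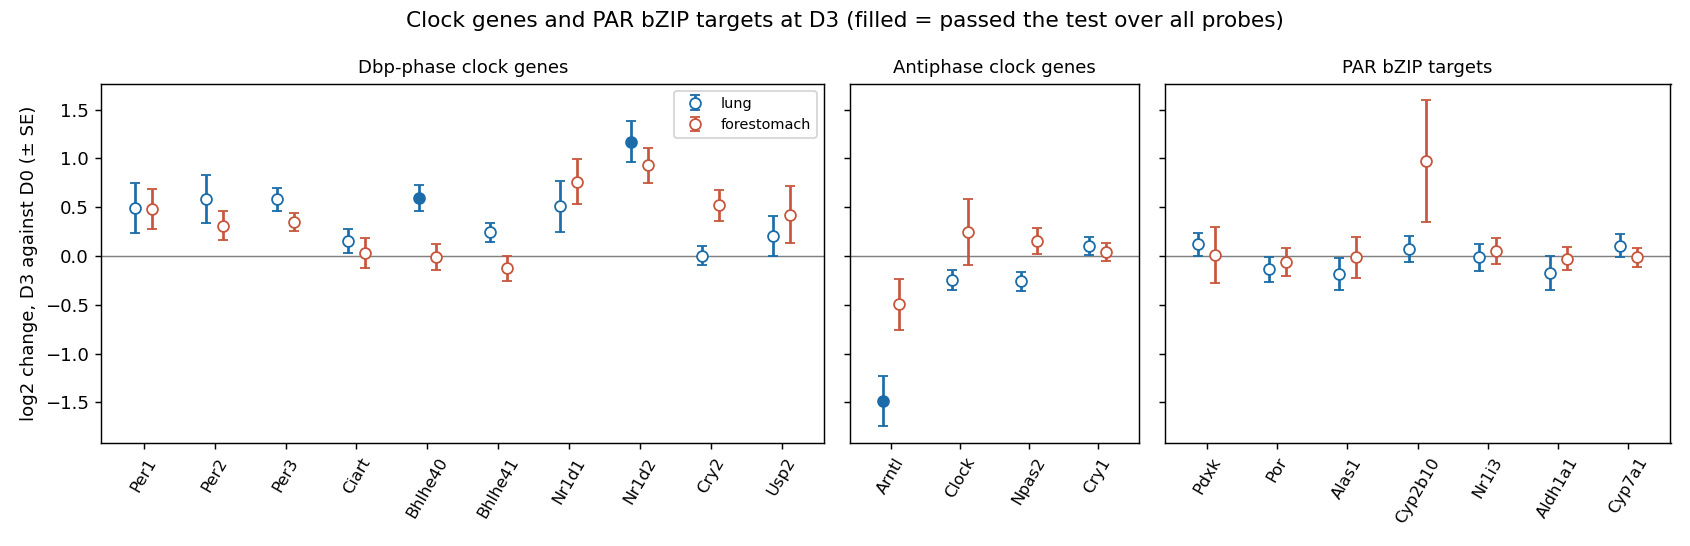
Log2 change at D3 against D0 (vertical axis) of clock genes that peak near Dbp, clock genes of the opposite phase and PAR bZIP targets (horizontal axis) in lung and forestomach; bars are the SE and filled points passed the test over all probes. Nr1d2 lay highest and Arntl lowest of the clock genes in lung. No PAR bZIP target passed in either tissue, where 0.639% of all probes passed in lung and 0% in forestomach.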

How the data were processed

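RNA of 38 tissue samples was hybridised by the authors, Cy5 for tissue and Cy3 for reference, without dye swaps. The deposited scanner files hold spot intensity from Agilent Feature Extraction 10.7.3.1 (array design on mm9), not normalized, and a log10 ratio that Feature Extraction had background-subtracted and dye-normalized. A series table of log2 ratios was deposited by the authors as well. Its scale, centring and direction are not stated: its columns, with medians from -0.0415 to -0.0195, correlated with the values below at 0.995 to 0.999 with slopes of 0.990 to 0.998.

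As in the study's methods, median intensities without background subtraction were normalized by loess within arrays (limma 3.58.1, R 4.3.3) and spots were averaged per probe, control and outlier spots left out. Symbols came from a RefSeq table (GRCm38.p6). Each tissue was fitted over its dose groups, and both in 1 fit for comparisons between tissues, without a mouse block in the main fit. The same number in both tissues marks the same mouse per the labels, and the consensus correlation within mice was 0.13. MAANOVA was not used. Agreement used 100000 permutations within dose groups, two-sided.

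The members and lists were chosen with earlier results of these data known. Named genes were the members, those most like them (5 for Dbp, 3 for the others; 1 in forestomach is not reported here), and called clock and target genes with up to 4 per list of largest lung change at D3; Cyp2b10 and Cebpb were named after their values were seen. Probes were called at an adjusted p of 0.05 and a 1.5-fold change. Scripts were tested on simulated data. Per the labels, both arrays averaged for mouse 18 are its repeats. Of mouse 20, lung alone was used here. P-values of comparisons within a tissue measure the spread between mice. In the main comparisons between tissues, the lung and forestomach values of a mouse entered as separate samples. The permutation p-values of agreement rest on the pairing of the tissues within dose groups. The number of arrays limits precision.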

Additional observations from a re-analysis of the deposited data

Results flagged for a closer look

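Of 40 combinations of probe, tissue and dose group, 3 held a mouse that stood apart from the rest of its group, by the gap to the nearest mouse over the range of the group, where chance gives about 1 in 20. The 2 Dbp probes are not independent. In forestomach at D1, mouse 7 was high on both, at 0.46 against -1.41 in the nearest mouse on the brighter probe (gap over range 0.887) and at 0.66 against -1.14 on the other (0.828), above the critical 0.71 for 5 mice. Without it the forestomach change in Dbp at D1 was 0.73 and not called, as with it. In forestomach at D3, mouse 17 was low on the second Dbp probe, at -0.30 against 0.40 (gap over range 0.830, just above the critical value for 4 mice), and not on the brighter one. No probe of the 4 genes had a response that differed between the tissues after adjustment.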

How the results depend on the processing

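Of 984 recomputed log2 changes of the 4 genes against D0, between tissues or between responses, 928 kept their direction and their side of the threshold, 43 lost a call, 8 gained one and 5 turned in sign. Changes not called in the main fit, among them all of forestomach against D0, counted as kept where they stayed uncalled. All 43 losses thus fell on changes called in the main fit. The lung Dbp call at D1 held in 6 of 10 processing alternatives and 3 of 10 fits without 1 mouse. For lung Nfil3 at D3 it was 7 of 10 and 2 of 10, and for lung Dbp at D3 9 of 10 and 10 of 10. Without loess, arrays centred on their median gave 0 called probes in lung at D1, D2, D3 and for the mean of the doses, and 1 between the tissues at D0. The same setting raised the median r of the tissues of a mouse over all probes from 0.14 to 0.62, and gave r of 0.84 for Dbp, 0.91 for Tef, 0.58 for Hlf (a turn in sign) and 0.88 for Nfil3. It also turned forestomach Nfil3 at D2 to 0.023, the tissue difference of Hlf at D0 to 0.0012, the difference in the Nfil3 responses to -0.094 and lung Clock at D3 to 0.10. In lung at D1, the Feature Extraction ratio and the trended robust prior gave 0 called probes, the authors' deposited ratios gave 1, and fits without 1 mouse 0 to 2. Fitting only D0 and D3 gave 2 called probes in forestomach at D3. The difference in the Nfil3 responses was -0.015 with the first array of mouse 18 and -0.0212 to 0.133 without 1 mouse (the lowest without mouse 3). The r of Hlf was -0.331 to 0.0434 without 1 mouse, and 0.055 with the 13 mice whose forestomach arrays scored above 4 for glandular markers, an alternative chosen after seeing the data, which called 0 of 5 probes in forestomach. With mouse as a fixed or random block, 0 of 5 probes differed in response and 4 of 5 between the tissues at D0, and the block changed no call but that of the second Dbp probe. The causes were not tested.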
